A study of Arabidopsis thaliana with 6 samples.

Results

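The HHO genes encode the closest relatives of HRS1 (also called AtNIGT1), and 5 of them could be followed in nitrate-treated Arabidopsis root protoplasts: HHO1 (AT3G25790), HHO2 (AT1G68670), HHO3 (AT1G25550), HHO5 (AT4G37180) and HHO6 (AT1G49560). They were chosen by locus, as the members of the HRS1/HHO group whose probe set names 1 gene in the array annotation, and each had 1 probe set. They are 5 of the 13286 genes named in this way. HRS1 itself and HHO4 are the other two genes of the group and were not analysed here.

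The protoplasts came from nitrate-treated roots and were transfected with pBeaconRFP_GR-HRS1, a plasmid from which HRS1 is made as a fusion to the glucocorticoid receptor under the constitutive CaMV35S promoter. Dexamethasone (DEX), a synthetic glucocorticoid, lets such a fusion enter the nucleus. Both groups carried the plasmid, were kept on nitrate, received 35 µM cycloheximide, an inhibitor of translation, and were sorted by their red fluorescent protein. The 3 samples of the +DEX group also received 10 µM DEX and the 3 samples of the −DEX group did not. The comparison asks which transcripts change when HRS1 reaches the nucleus while no new protein is made. A group that received DEX without the HRS1 fusion was not analysed here. The plant accession, the age of the plants and any pooling are not given in the sources used here. Nothing in the labels says that the replicates were separate preparations, so the p-values cover only how far these samples differ from one another, and part of that may be technical.

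GARP proteins are plant transcription factors that share a Myb-like DNA-binding domain. The NIGT1 branch of this family, HRS1 with HHO1, HHO2 and HHO3, is known as a set of transcriptional repressors whose genes are switched on by nitrate. They act on genes of nitrate uptake and of the phosphate starvation response, and are known to act on the genes of their own branch as well. HHO5 and HHO6 lie outside these 4 in the same group, and HHO5 is best known from the floral meristem.

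Each sample was measured on 1 Affymetrix ATH1 array. The unit is the intensity of a probe set, scaled so that all arrays had the same median, on a log2 scale. Signals of different probe sets do not measure relative abundance, since probes differ in how well they bind. Background was set for each array as the 95th percentile of 27 probe sets for Bacillus RNA, and it lay between 5.08 and 6.60 on the log2 scale. The arrays of the +DEX group had a lower mean background (5.46) than those of the −DEX group (6.07). One array, that of −DEX replicate 1, was less like the others: its mean Spearman correlation with them was 0.708, against 0.777 to 0.822. Its ratio of 3′ to 5′ ubiquitin signal was the highest, at 18.6, against 5.45 to 8.85. Its ratio for GAPDH was the lowest, at 2.12, against 2.31 to 3.66, so these ratios pointed in opposite directions. Root identity could not be checked well. Listed genes count as measured here only if a probe set names that 1 gene in the array annotation used. The rest were not analysed, so nothing is said of their signal. Of 16 root cell markers, EXPA7 and CO2 had such a probe set, and both lay under the background on all 6 arrays. Of 12 leaf mesophyll markers, 0 had a probe set named in this way.

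HHO2, HHO3 and HHO5 were bright on every array, HHO1 was dim, and HHO6 was at the edge of detection. With DEX, 4 of the 5 genes had a lower mean (HHO1 at −0.10 on the log2 scale, a sign that turned with the values as deposited) and 1 (HHO6) a higher one. None of the 5 passed an adjusted p of 0.05 in limma, a linear model with moderated variances fitted over all 22746 probe sets, against 0.119% of all probe sets lower and 0% higher. The largest difference among the bright members was that of HHO5, which was 3.39-fold lower in the +DEX group. At an unadjusted p under 0.05 there was 1 member lower (HHO5) and 0 higher, against 4.1% of all probe sets lower and 2.49% higher. That member count was 3 without −DEX replicate 3, with HHO2 and HHO3 added (limma adjusted p = 0.41 and 0.42), and 2 with a floor at a log2 of 5. The shares of 4.1% and 2.49% are those of the main fit. No such share is given for these other settings, so the change in the count is not a result about the members. The 27 probe sets behind the share of 0.119% also varied: there were 12, 0 and 46 when −DEX replicate 1, 2 or 3 was omitted, and 3, 24 and 4 when the +DEX replicates were. The number was 0 with the floor and 0 without the variance trend.

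**Figure D1:**
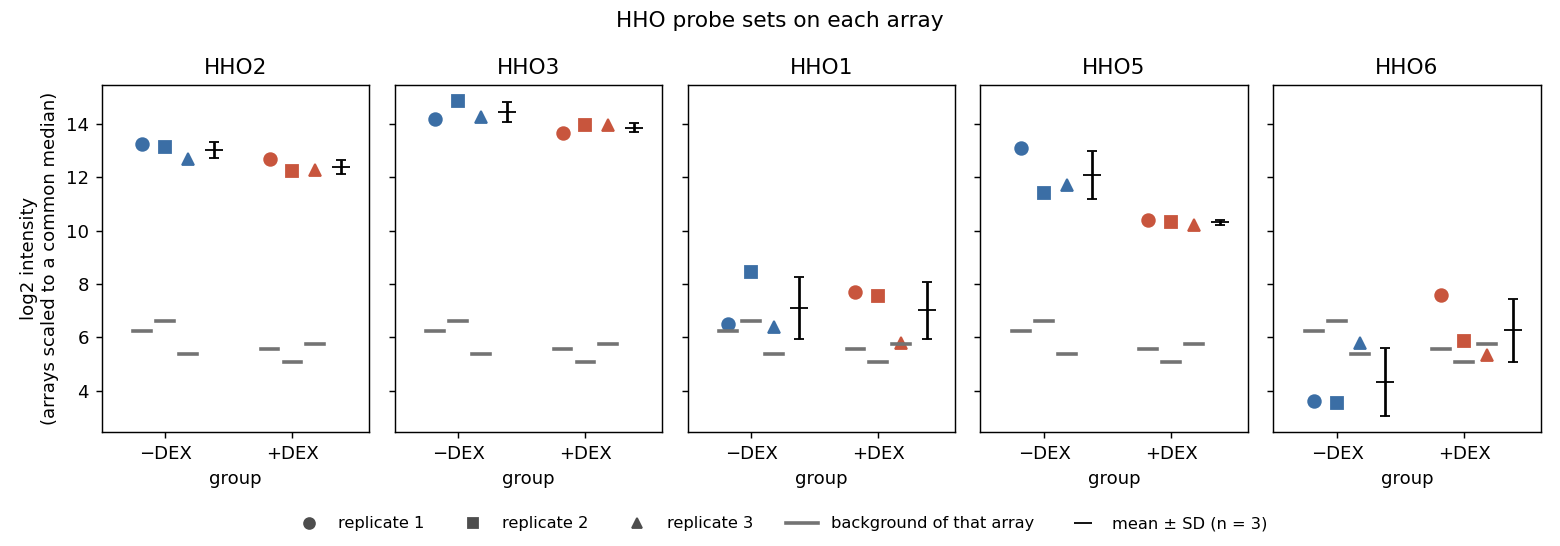
Log2 intensity (vertical axis, arrays scaled to a common median) of the 5 HHO probe sets on the 3 −DEX arrays (blue) and the 3 +DEX arrays (red), with the symbol for the replicate number, a grey bar for the background of that array and the mean ± SD in black. HHO5 lies between 11.42 and 13.11 without DEX and between 10.22 and 10.41 with it. HHO1 lies above the background bar of each array, on some by little, and HHO6 lies on both sides of the bars.

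HHO2, one of the nitrate-induced repressors and known for a role in phosphate homeostasis, had a deposited intensity of 8737, 7397 and 7270 in −DEX replicates 1, 2 and 3. In the +DEX replicates, in the same order, it was 6550, 5546 and 5261. After scaling, its log2 intensity was 13.26, 13.13 and 12.70 without DEX and 12.70, 12.23 and 12.28 with DEX. All 3 +DEX arrays thus lay below all 3 −DEX arrays, but −DEX replicate 3 and +DEX replicate 1 were equal to 2 decimals. The means were 13.03 ± 0.29 and 12.41 ± 0.26 (SD, n = 3 each). The difference was −0.63 ± 0.35 (SE; limma adjusted p = 0.77), and its 95% interval ran from −1.38 to 0.13. A fall of up to 2.6-fold or a rise of up to 1.09-fold lies within that interval.

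HHO3, which belongs to the same branch, was far above background on every array. Its deposited intensity was 16687, 24834 and 21500 without DEX and 12819, 18272 and 16846 with DEX (replicates 1, 2 and 3). The scaled log2 values were 14.19, 14.88 and 14.27 without DEX. With DEX they were 13.67, 13.95 and 13.96. After scaling the groups did not overlap, but as deposited they did, since −DEX replicate 1 lay below +DEX replicates 2 and 3. The means were 14.45 ± 0.38 and 13.86 ± 0.16 (SD, n = 3 each), and the difference was −0.58 ± 0.31 (SE; limma adjusted p = 0.77). Its 95% interval ran from −1.24 to 0.07. For HHO2 and HHO3 the size depended on the scaling, being −0.26 and −0.24 once the arrays were quantile-normalized. With the deposited values left unscaled it was −0.43 and −0.39. The median over all probe sets moved with it, from −0.10 as scaled to 0.09 as deposited. Relative to that median, HHO2 was at −0.52 and HHO3 at −0.48 in both, and under quantile normalization at −0.27 and −0.24.

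HHO1, known to act together with HRS1 on primary root growth, was dim. Without DEX its deposited intensity was 79.9, 289 and 90.4, and with DEX 202, 217 and 58.4. It exceeded the background on all 6 arrays, but by as little as 1.18 times on −DEX replicate 1 and 1.03 times on +DEX replicate 3. The brightest array was −DEX replicate 2 and the dimmest +DEX replicate 3. The groups overlapped over most of their range. On the scaled log2 scale, −DEX replicates 1 and 3 (6.48 and 6.37) lay below +DEX replicates 1 and 2 (7.68 and 7.55). The mean log2 intensity was 7.10 ± 1.17 without and 7.01 ± 1.06 with DEX (SD, n = 3 each). The difference was −0.10 ± 0.95 (SE; limma adjusted p = 0.99), with a 95% interval from −2.13 to 1.94. A fall of up to 4.37-fold and a rise of up to 3.83-fold both lie within it, and the sign turned to 0.10 with the values as deposited.

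HHO5, known to control floral meristem development, had the clearest separation. As deposited, its intensity was 7868, 2253 and 3647 without DEX, and 1333, 1477 and 1258 with DEX. The scaled log2 values were 13.11, 11.42 and 11.71 without DEX and 10.41, 10.32 and 10.22 with it. On this scale the 3 +DEX arrays lay within 0.19 of each other and at least 1.01 below the lowest −DEX array. The gap was 0.61 both as deposited and under quantile normalization, where the difference in means was −1.57 and −1.52. The −DEX arrays were spread much more widely, with replicate 1 the highest. That array is the one least like the others over all probe sets, with the highest ubiquitin ratio but the lowest GAPDH ratio. The part of RNA quality in the value was not tested. The means were 12.08 ± 0.90 and 10.31 ± 0.09 (SD, n = 3 each), and the difference was −1.76 ± 0.49 (SE). Its 95% interval ran from −2.81 to −0.71, or from 1.64-fold to 7.01-fold lower. The limma p was 0.0029 before and 0.55 after adjustment over all probe sets. Before adjustment it was 0.038 without the variance trend and 0.014 with the floor at a log2 of 5. Without −DEX replicate 1 the difference was −1.25 (limma adjusted p = 0.76). In bulk RNA, fewer cells that express a gene and less RNA per cell cannot be told apart.

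HHO6 was close to or below the background on all arrays but +DEX replicate 1. The deposited intensities were 11.0, 9.50 and 59.9 without DEX and 188, 67.3 and 42.4 with it. It exceeded the background on 1 of 3 −DEX arrays (replicate 3) and on 2 of 3 +DEX arrays (replicates 1 and 2). The mean background was lower on the +DEX arrays (5.46) than on the −DEX arrays (6.07). The groups overlapped, since −DEX replicate 3 lay above +DEX replicate 3. The means were 4.31 ± 1.27 and 6.26 ± 1.18 (SD, n = 3 each). The difference of 1.95 ± 1.24 (SE; limma adjusted p = 0.79) had a 95% interval from −0.71 to 4.60. A floor at a log2 of 5 reduced it to 0.995. The highest value, on +DEX replicate 1, was 4.06 times the background.

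The place of a probe set among all probe sets of its own array does not depend on how arrays are scaled. HHO5 lay at percentiles 97.2, 92.1 and 95.3 without DEX and 88.2, 88.9 and 87.8 with DEX, so the groups were apart by 3.15 percentile points. HHO2 lay at 97.5 to 97.6 without and 96.6 to 97.3 with DEX, also without overlap, but apart by 0.13 points. HHO3 lay at 98.8 to 99.5 and 98.7 to 99.3, and the groups overlapped. HHO1 moved between 43.5 and 72.1 and HHO6 between 21.0 and 63.2 over the 6 arrays, with the groups overlapping in both.

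**Figure D2:**
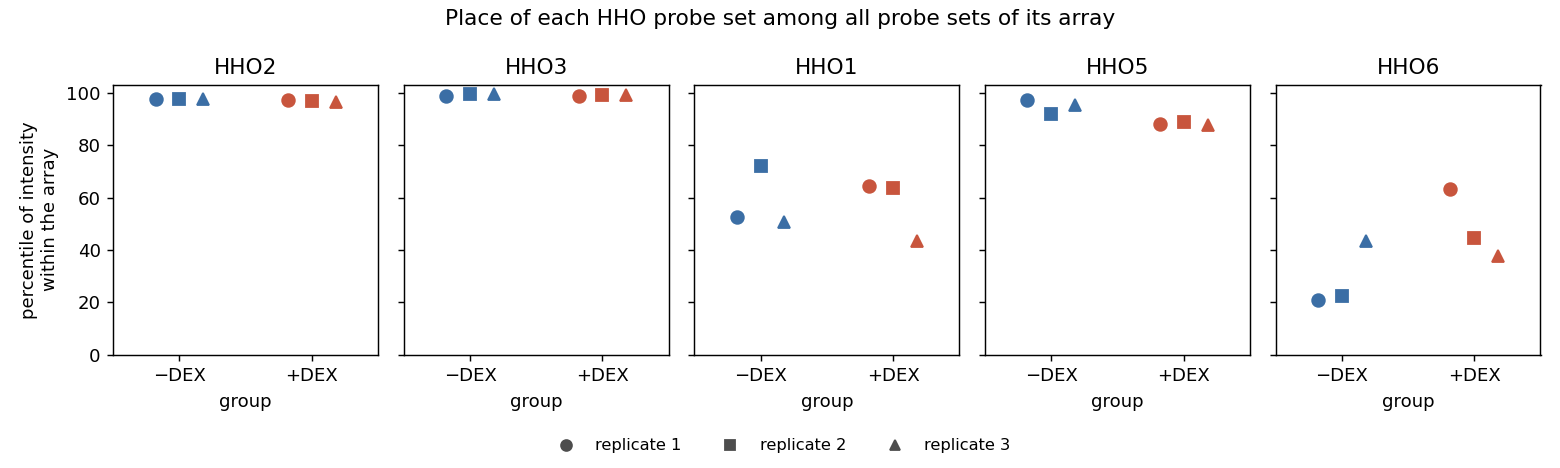
Percentile of the intensity of each HHO probe set among all 22746 probe sets of the same array (vertical axis), for the −DEX arrays (blue) and the +DEX arrays (red), with the symbol for the replicate number. HHO5 lies between 92.1 and 97.2 without DEX and between 87.8 and 88.9 with it, HHO2 and HHO3 stay above 96, and HHO1 and HHO6 are spread widely within both groups.

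After scaling to a common median, 3 of the 5 genes (HHO2, HHO3 and HHO5) had all +DEX arrays below all −DEX arrays, and 0 had the reverse. Over all probe sets this was so for 7.55% in the lower and 4.99% in the higher direction. As deposited, after quantile normalization and by percentile on the array, the count was 2 (HHO2 and HHO5). The shares of 7.55% and 4.99% hold for the common median alone. No share over all probe sets is given for the other scalings, so these counts stand without a comparison. The median difference over the 5 genes was −0.58, against −0.10 over all probe sets. It was −0.24 under quantile normalization, against 0.01 over all probe sets, −0.39 as deposited, against 0.09, and −0.37 without −DEX replicate 2, against −0.08. Among the 7602 probe sets above background on all 6 arrays the median was −0.08. Of these 7602, 1.89% had a difference as low as that of HHO5 or lower, while for HHO2 and HHO3 the shares were 21.1% and 22.9%.

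**Figure D3:**
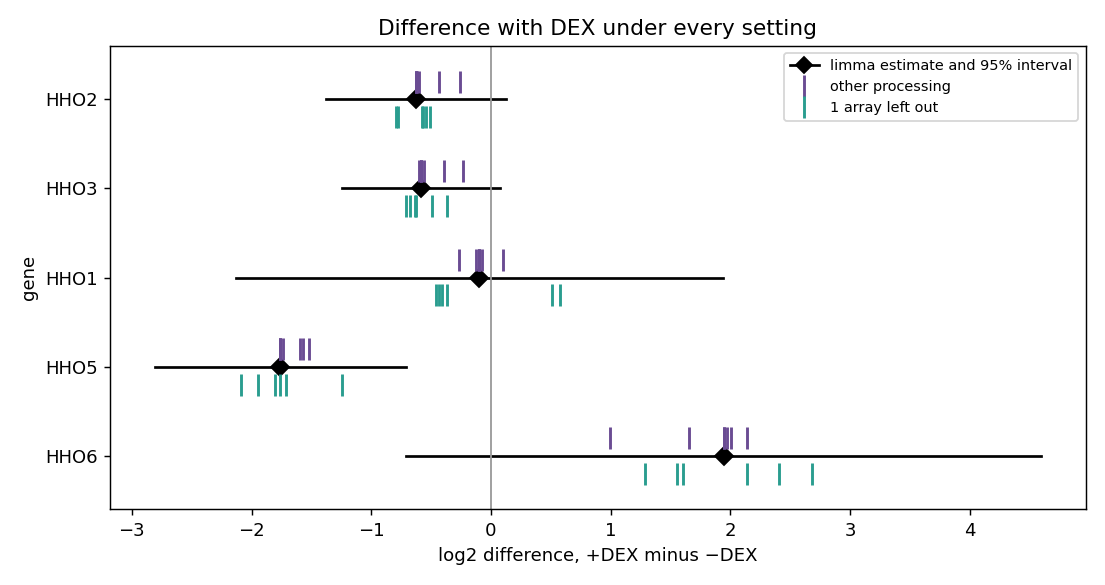
Log2 difference with DEX (horizontal axis, +DEX minus −DEX) of the 5 HHO genes, with the limma estimate (diamond), its 95% interval (line), the estimates under other processing (purple) and those with 1 array left out (green). HHO5 stays between −2.09 and −1.25, the estimates of HHO2 and HHO3 stay below 0 with intervals that reach past it, and those of HHO1 lie on both sides of 0.

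To ask whether the bright genes moved by different amounts, the ratio of 2 probe sets was taken within each array. This cancels a single scaling factor per array, but not quantile normalization. The log2 ratio of HHO5 to HHO2 was −0.15, −1.72 and −0.995 in −DEX replicates 1, 2 and 3, and −2.30, −1.91 and −2.06 in the +DEX replicates. All 3 +DEX ratios were lower, with a difference of −1.14 in the mean (−0.73 without −DEX replicate 1). The exact permutation test gave p = 0.1, which is the smallest that 3 against 3 arrays allow, and p = 0.4 after adjustment over the 6 pairs of HHO1, HHO2, HHO3 and HHO5. The ratio of HHO5 to HHO3 differed by −1.18 and overlapped between the groups (exact permutation p = 0.2, adjusted p = 0.4), since −DEX replicate 2, at −3.46, lay among the +DEX arrays at −3.27, −3.63 and −3.74. Without −DEX replicate 1 that difference was −0.54, and without −DEX replicate 2 it was −1.72. A different change of HHO5 was therefore not shown by this test, which could not have passed 0.05.

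The ratio of HHO2 to HHO3 showed another pattern. It was −0.93, −1.75 and −1.56 without DEX and −0.97, −1.72 and −1.68 with DEX. The change with DEX was −0.04 (exact permutation p = 0.8, adjusted p = 0.8). Arrays with the same replicate number differed by 0.11 at most, while the ratio spanned 0.81 over the 6 arrays, with replicate 1 high in both groups. This likeness by replicate number was seen after the values were known. The 3 pairs with HHO1 had changes of −1.67 (HHO5), −0.53 (HHO2) and −0.49 (HHO3), with exact permutation p of 0.2, 0.8 and 0.7, and rest on a dim probe set. With single arrays left out they ranged from −2.67 to −0.84, −1.16 to −0.11 and −1.15 to −0.06. That of HHO5 was smallest without −DEX replicate 1 and largest without −DEX replicate 2. Those of HHO2 and HHO3 were −1.16 and −0.95 without −DEX replicate 2 and −1.08 and −1.15 without +DEX replicate 3. They were −0.11 and −0.31 without −DEX replicate 1, −0.33 and −0.21 without −DEX replicate 3, −0.34 and −0.06 without +DEX replicate 1, and −0.17 and −0.26 without +DEX replicate 2.

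**Figure D4:**
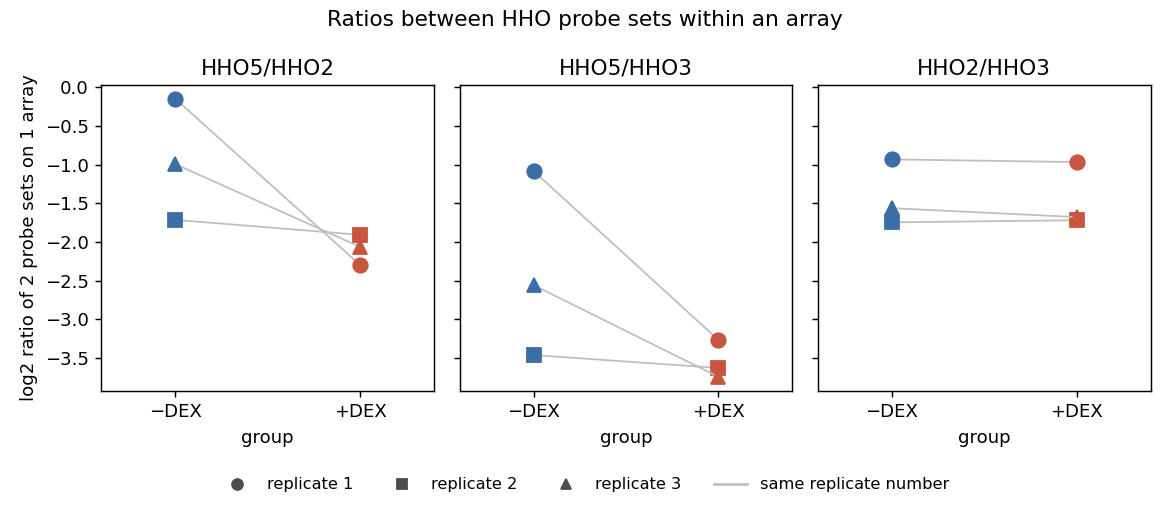
Log2 ratio of 2 HHO probe sets on the same array (vertical axis) without DEX (blue) and with DEX (red), with a symbol for the replicate number and a grey line between arrays of the same number. The ratio of HHO5 to HHO2 is lower on all 3 +DEX arrays, and the ratio of HHO2 to HHO3 differs by 0.11 at most between arrays of the same number.

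The genes whose profile over the 6 arrays was most like that of a member were sought among the 3962 named probe sets above background on all arrays, by Pearson correlation of the scaled log2 values. For HHO5 these were AT1G75800 (r = 0.99) and AT2G39110 (r = 0.98). AT1G75800 had values of 9.33, 7.70 and 7.98 without DEX and 7.06, 7.04 and 6.97 with DEX, so it shared the high −DEX replicate 1 and the narrow +DEX group of HHO5. For HHO2 they were AT1G27900 and AT1G17665, both with r above 0.99 and with differences of −1.11 and −1.19. For HHO3 they were AT5G43410 (r = 0.99) and AT3G48880 (r = 0.98), and for HHO1 AT2G44525 (r = 0.99) and AT5G46710 (r = 0.97). With 6 arrays and this many probe sets correlations of this size can arise without any relation, so they only describe the profiles, and all genes share the arrays' quality.

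Other GARP proteins and the pathways in which the HHO proteins act were measured in part. Of 28 other GARP genes, 6 had a named probe set, and 0 of the 6 passed the threshold in either direction (0 also at an unadjusted limma p under 0.05), with a median difference of 0.14. PHL2, a relative of the phosphate starvation regulator PHR1, was the only one of the 6 above background on all arrays. Its log2 intensity was 7.64, 7.67 and 8.41 without DEX and 6.18, 9.14 and 8.85 with DEX, so the +DEX arrays lay on both sides of the −DEX arrays (difference 0.15 ± 0.85, SE; limma adjusted p = 0.98). PHL4, another PHR1 relative, lay under the background on all 3 −DEX arrays and above it on all 3 +DEX arrays. These calls depended on the cut-off of each array. The −DEX replicate 1 value of 5.87 exceeded all 3 +DEX cut-offs (5.55, 5.08 and 5.75). The +DEX replicate 3 value of 6.02 lay under the cut-offs of −DEX replicates 1 and 2 (6.24 and 6.60). The measured means were 4.54 and 6.98 (limma adjusted p = 0.75), and the 95% interval of the difference ran from −0.03 to 4.92. Set against the mean −DEX background, the +DEX mean was 1.88-fold higher, a value that leaves out the sampling error. PHL4 was picked out after its values were seen. ARR18, a type-B cytokinin response regulator, exceeded the background on 3 of 6 arrays, MYR2 and MYBC1 on 1 each and ARR19 on 0. All +DEX arrays of ARR18 lay above all −DEX arrays. Its difference was 1.67 ± 1.28 (SE), with a limma adjusted p of 0.82. The same separation was seen for PHL4 and for 4.99% of all probe sets, while the groups of PHL2, MYR2, ARR19 and MYBC1 overlapped.

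Of 46 genes of nitrate uptake, assimilation and signalling, 4 had a named probe set. Of these, 0 passed the threshold in either direction (0 also at an unadjusted limma p under 0.05). None of the 4 was above background on all arrays, and their median difference was 0.09. NRG2, a regulator of nitrate signalling, lay above background on no −DEX array and on 2 of 3 +DEX arrays. CEPD2, of systemic nitrogen signalling, did so on 1 +DEX array alone. CEPD1 and the nitrate transporter NRT2.5 did so on none of the 6. Of 27 phosphate starvation genes, 3 had a named probe set. There were 0 past the threshold in either direction (0 also at an unadjusted limma p under 0.05), and the median difference was −0.75. LPR2, a multicopper oxidase of phosphate sensing, was above background on all arrays, at 6.77, 8.92 and 7.94 without DEX and 7.84, 6.62 and 6.91 with DEX, and the groups overlapped. PHT5;1, a vacuolar phosphate transporter, lay above background on all 3 +DEX arrays but on 1 of 3 without DEX, with means of 4.78 ± 1.97 and 6.91 ± 0.28 (SD, n = 3 each; limma adjusted p = 0.77). LPR1 lay under the background on all 6 arrays. For NRG2, CEPD2 and PHT5;1, the counts with DEX rest on a lower mean background (5.46) than those without DEX (6.07).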

How the data were processed

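The authors' deposited table holds 1 linear intensity per probe set and array, already scaled to a common trimmed mean, as its values show. RNA was labelled with a 3′ in vitro transcription kit, per the labels' protocols. The probe summary method is not stated in the labels. Arrays were scaled to a common median, floored at 1 and put on a log2 scale. The 64 control probe sets were left out, which left 22746. Groups came from the sample titles. limma 3.58.1 in R 4.3.3 was run with the group as the only term, a variance trend and Benjamini-Hochberg adjustment over all probe sets. It was also tested on simulated data. The changes planted there lay in probe sets above background and were larger than any HHO difference. That test therefore does not tell whether changes of the HHO size could be found. Probe sets were named through the array annotation and the gene table of TAIR10.1 (13436 with 1 gene).

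The members and lists (other GARP, nitrate, phosphate starvation, root and leaf markers) were chosen with earlier results of these data known. All members were named, with up to 3 genes of smallest p per list among those above background on all arrays, and the 2 most alike genes for each member above background on all arrays (not HHO6). The other measured genes of the lists were named after their values were seen, to account for each list. Alternatives covered the replicate block, scaling, floor, a filter on dim probe sets, the variance trend, array weights, the background cut-off and each array left out. Arrays of the same replicate number had deviations that correlated by −0.0051 to 0.025, so the number was not taken as a pairing.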

Additional observations from a re-analysis of the deposited data

How the results depend on the processing

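In every setting run, 0 of the 5 HHO genes and 0 measured genes of the other GARP, nitrate and phosphate starvation lists passed an adjusted p of 0.05. HHO2, HHO3 and HHO5 kept a negative and HHO6 a positive difference in all of them. HHO1 turned, to 0.10 as deposited, and ranged from −0.46 to 0.58 with single arrays left out. With single arrays left out the ranges were −2.09 to −1.25 for HHO5, −0.79 to −0.51 for HHO2, −0.71 to −0.37 for HHO3 and 1.29 to 2.68 for HHO6. The change in the ratio of HHO2 to HHO3 ranged from −0.28 to 0.20, in that of HHO5 to HHO2 from −1.52 to −0.73 and in that of HHO5 to HHO3 from −1.72 to −0.54. Under quantile normalization these changes were −0.02, −1.26 and −1.29, in the same order. The ratios of HHO5, HHO2 and HHO3 to HHO1 then changed by −1.40, −0.13 and −0.11. Medians of uncalled lists also turned: nitrate genes ranged from −0.66 to 1.21 and other GARP genes from −0.13 to 0.87 with single arrays left out, and the phosphate starvation genes were at 0.69 without the dimmest 40%, where fewer genes were tested (other GARP genes, 1.67). In the other cases the cause was not tested. With the replicate block, HHO5 was at −1.76 and, as in the main fit, did not pass (limma adjusted p = 0.49). Over all probe sets, 33 then passed in the lower direction, against 27 in the main fit. Adjusted p-values of HHO5 ranged from 0.24 without −DEX replicate 3 to 0.95 without +DEX replicate 3. Against the maximum of the Bacillus probe sets, 3 members instead of 4 were above background on all arrays, without HHO1. The 4 nitrate genes were all among the dimmest 40% and have no value without them. Signal over background limits HHO1 and HHO6. The count of genes without overlap by scaling and by percentile was added after the data were seen.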

Other observations

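Of the 10 protein-coding genes next to the members in the gene table of TAIR10.1, 5 had a named probe set. AT1G68660 and AT1G68680, on both sides of HHO2, had differences of 0.30 ± 0.94 and 0.14 ± 0.91 (SE; limma adjusted p = 0.97 and 0.98). AT4G37170, next to HHO5, lay under the background on all 6 arrays (difference −1.80 ± 1.25, SE; limma adjusted p = 0.805). AT4G37190, on the other side of HHO5, exceeded the background on 3 of 6 (difference −0.41 ± 1.76, SE; limma adjusted p = 0.98). AT1G49570, next to HHO6, lay under the background on all 6 (difference 1.27 ± 1.07, SE; limma adjusted p = 0.835). Differences between values under the background say little about the genes. These genes were looked at after the data were seen.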
